A study of Mus musculus with 6 samples.

Results

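MiR-142 is a microRNA gene that is active in blood cells of every lineage and at most very weakly in other tissues. The table of mature miRNAs holds 3 entries under its name, out of 1390 listed, and they were taken by name: mmu-miR-142a-3p, mmu-miR-142a-5p and mmu-miR-142b. They were measured by small-RNA sequencing of whole thymus from C57BL mice aged 5 weeks. Irradiated mice (n = 3) were given an X-ray dose of 6 Gy, at 800 cGy/min and a distance of 40 cm, and control mice (n = 3) none. Every thymus was taken at the 24 h time point, so the groups differ in irradiation alone as far as the labels tell. The organ was not separated into cell types, so in these bulk samples fewer blood cells and less miR-142 per blood cell cannot be told apart.

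A miRNA is cut from a hairpin precursor, and either arm can be loaded into an Argonaute protein, where its seed (bases 2 to 8 from the 5′ end) pairs with target messenger RNAs. For most hairpins 1 arm is kept and the other is discarded, whereas both arms of miR-142 are found in blood cells at high levels. The thymus is filled with immature T cells (thymocytes), and it also holds macrophages, dendritic cells and B cells, all of which make miR-142, among epithelial, vascular and connective tissue cells that do not. Mice without the gene have defects in several blood lineages, T cells included.

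The mature sequences show which reads can tell the 3 entries apart. They are given 5′ to 3′ with the seed in capitals, as RefSeq lists them for GRCm38.p6, and each was identical to the sequence in the deposited table.
mmu-miR-142a-3p: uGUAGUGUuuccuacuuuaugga
mmu-miR-142a-5p: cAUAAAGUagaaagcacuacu
mmu-miR-142b: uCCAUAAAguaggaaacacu
The 3 seeds differ from each other, and 0 other entries of the table share any of them, so no family member with the same seed was available for comparison. MiR-142a-5p (21 nt) lies on chromosome 11 at chr11:87756867-87756887 and miR-142a-3p (23 nt) at chr11:87756903-87756925, both on the plus strand. MiR-142b (20 nt) is read from the minus strand at chr11:87756906-87756925. Its whole sequence is the reverse complement of bases 4 to 23 of miR-142a-3p. It also resembles miR-142a-5p, because the hairpin is nearly symmetrical: from base 3 of miR-142b the 2 sequences match at 16 of 18 bases, the substitutions from miR-142a-5p being A11G and G14A, counted from the 5′ end of miR-142a-5p.

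The hairpin of the Mir142 gene (64 nt, chr11:87756864-87756927, plus strand) is shown with both mature arms in capitals, since the strand comparison takes both as products of this 1 molecule.
Mir142: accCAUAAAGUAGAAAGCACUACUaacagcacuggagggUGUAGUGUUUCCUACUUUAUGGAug
RNAfold predicted 22 base pairs in it. In GENCODE M21 the hairpin lies in the single intron (87755614 to 87757038) of Mir142hg, a long non-coding RNA on the same strand at 87755577 to 87757270. The Mir142b hairpin (87756841 to 87756955) covers the same stretch on the opposite strand.

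The miR-142b entry carried no measurement of its own. Its counts were the same as those of miR-142a-3p in all 6 libraries, 47911, 87408 and 54109 in control replicates 1, 2 and 3 and 7819, 7898 and 9558 in irradiated replicates 1, 2 and 3. Identical counts for reverse-complementary sequences are what a table holds when the same reads are entered under both names. Some, but not all, other such entries had near-equal counts. Among known miRNAs, 53 pairs of entries are reverse complements over at least 16 bases, and in 19 of these both entries averaged at least 100 counts. In 11 of the 19 the counts differed by at most 5% in every library, as for miR-24-3p and miR-3074-5p, and in 1, the miR-142 pair, they were identical. In the other 8 pairs they differed by more. Every value below is therefore given for miR-142a-3p and stands for miR-142b as well. Which strand the reads came from cannot be read from the table. MiR-142a-5p has no such partner entry.

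Both arms were lower in the irradiated thymus, and the fall was larger for miR-142a-3p (by 1.44 on the log2 scale within libraries, limma adjusted p of 0.0298, a call that rests on several single libraries as given with the strand ratio). Levels are CPM (counts scaled to library size) with trimmed-mean (TMM) factors, and changes are log2 fold changes of irradiated over control with their SE. Adjusted p-values (Benjamini-Hochberg) come from edgeR's quasi-likelihood test fitted on all tested miRNAs, with 0.05 as the threshold.

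MiR-142a-3p stood at 6834, 8112 and 6639 CPM in control replicates 1, 2 and 3. In irradiated replicates 1, 2 and 3 it stood at 1020.2, 943 and 1015 CPM. The irradiated libraries lay close together and far below every control library, so the groups did not overlap. The mean went from 7195 ± 799.8 to 993 ± 43.2 CPM (SD, n = 3 per group), 7.25-fold lower. The log2 fold change was −2.86 ± 0.24 (SE), with an edgeR adjusted p of 1.8e-05. The exact two-sided permutation p was 0.1, the smallest that 3 against 3 libraries allow.

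MiR-142a-5p stood at 9522, 7476 and 9549 CPM in control replicates 1, 2 and 3. In irradiated replicates 1, 2 and 3 it stood at 4417, 2655 and 3092 CPM. All irradiated libraries were below all control libraries here too, but irradiated replicate 1 was clearly above the other 2. The mean went from 8849 ± 1189 to 3388 ± 917 CPM (SD, n = 3 per group), 2.61-fold lower. The log2 fold change was −1.39 ± 0.27 (SE, edgeR adjusted p of 0.0018, exact two-sided permutation p of 0.1).

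**Figure D1:**
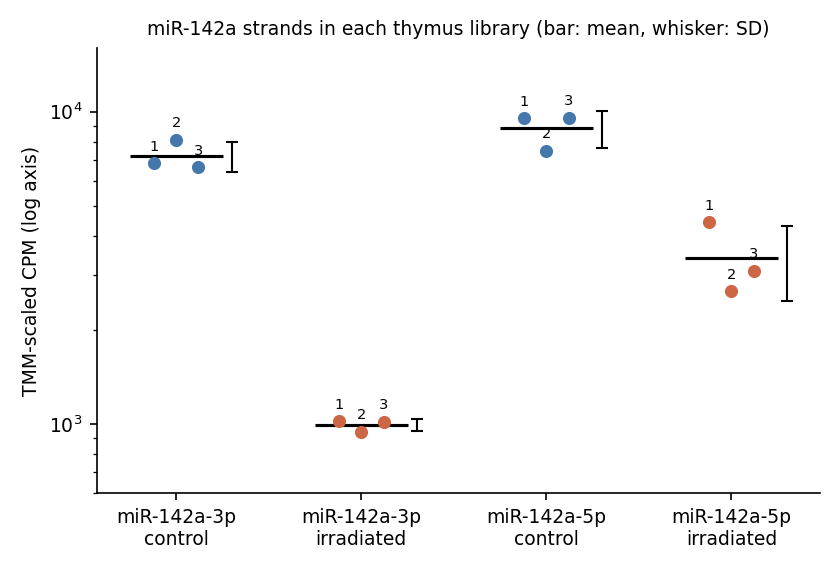
TMM-scaled CPM on a log axis for both arms of miR-142a in each library, with the replicate number at each point, the mean as a bar and the SD as a whisker beside it (n = 3 per group). MiR-142a-3p lies between 6639 and 8112 CPM in control and between 943 and 1020.2 CPM in irradiated libraries, and miR-142a-5p between 7476 and 9549 and between 2655 and 4417 CPM.

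Lower levels were common in these libraries, which sets the scale for the miR-142 result. The threshold was passed by 318 of 519 miRNAs (61.3%), 174 (33.5%) as lower and 144 (27.7%) as higher, and all 3 miR-142 entries, which are 2 measurements, were among the lower ones. The groups did not overlap for 356 of the 519 (68.6%), with irradiated libraries wholly below control libraries for 190 (36.6%). Ordered by log2 fold change from the lowest, miR-142a-3p took place 55 and miR-142a-5p place 137. Ordered by level, miR-142a-5p was at place 19 in control and 29 in irradiated libraries, and miR-142a-3p at place 21 and 59. As a share of all miRNA counts, without TMM scaling, miR-142a-3p went from 0.783% ± 0.305 to 0.0952% ± 0.00675 and miR-142a-5p from 0.923% ± 0.131 to 0.322% ± 0.0654 (SD, n = 3 per group).

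The direction of both arms did not depend on the scaling, though the size did. Over all tested miRNAs the log2 change had a median of 0.01 under TMM and of 0.44 under upper-quartile scaling. The latter called 206 miRNAs higher and 139 lower (59.7% higher, against 45.3% with TMM). Relative to the median of all miRNAs, miR-142a-3p changed by −2.91 to −2.86 and miR-142a-5p by −1.40 to −1.37 on the log2 scale over TMM, median-of-ratios, library-total and upper-quartile scaling. In the authors' deposited table the log2 fold changes are −2.79 for miR-142a-3p and −1.30 for miR-142a-5p, from the same libraries.

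The libraries of the irradiated group were not alike in other tissues' miRNAs. MiR-1a-3p, made in skeletal and heart muscle, stood at 19377 and 13225 CPM in irradiated replicates 2 and 3 against 527 CPM in replicate 1. Control libraries held 191 to 459 CPM of it. MiR-142a-3p was as low in replicate 1 as in the others, and with replicate 1 as the only irradiated library it still passed (−2.62, edgeR adjusted p of 2.2e-08). MiR-142a-5p did not (−0.80, edgeR adjusted p of 0.0763). In that fit the single irradiated library is assumed to vary like the controls. The part that this difference in miR-1a-3p plays in the value of either arm was not tested.

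The balance of the 2 arms shifted toward miR-142a-5p after irradiation. Because both arms are compared within a library, their ratio does not depend on scaling. It takes the miR-142a-3p counts as coming from the Mir142 hairpin. The same counts stand under miR-142b, of the opposite-strand hairpin, and their strand is not known. Control replicates 1, 2 and 3 held 0.718, 1.085 and 0.695 counts of miR-142a-3p per count of miR-142a-5p. Irradiated replicates 1, 2 and 3 held 0.231, 0.355 and 0.328. The arms were thus of similar abundance in control libraries, with miR-142a-3p the more abundant in replicate 2, and miR-142a-5p was the more abundant arm in every irradiated library. The mean ratio went from 0.833 ± 0.219 in control to 0.305 ± 0.0653 after irradiation (SD, n = 3 per group).

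On the log2 scale the ratio changed by −1.44 (95% interval −2.19 to −0.70, limma adjusted p of 0.0298 over all strand pairs, exact two-sided permutation p of 0.1). The same fit covered 146 hairpin names with both arms tested, of which 20 (13.7%) passed, 10 toward the 5p arm (6.85%) and 10 toward the 3p arm. In size, the change of a strand ratio had a median of 0.55 and an upper quartile of 0.99 over these pairs, and 15 pairs changed by more than miR-142a. Without the pairs in which an arm is the reverse complement of another entry, miR-142a itself kept, 18 passed and the limma adjusted p for miR-142a was 0.0265. In order from the largest shift toward 5p, miR-142a took place 7, between miR-671 (−1.57, limma adjusted p of 0.0718) and miR-342 (−1.32, 0.034). At the 5p end of the order stood miR-26b (−3.05, limma adjusted p of 0.01), whose call was lost without control replicate 2 (0.072) or 3 (0.098). Its 3p arm was scarce, at 3.14 to 6.68 CPM in control and 1.27 to 1.55 CPM in irradiated libraries. The other end, miR-18b, gives no usable ratio, since its 3p arm had 0 CPM in every irradiated library: its value was 2.87 with a prior count of 2 and 1.14 with 0.5.

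The call for the miR-142a strand ratio was near the threshold, while its direction and size were steady. It was lost without control replicate 1 (limma adjusted p of 0.1), control replicate 2 (0.114), control replicate 3 (0.101) or irradiated replicate 3 (0.066), with values of −1.57 to −1.24 over all 6 single libraries left out. The count of called pairs moved with it, to 1, 0, 0 and 3 in those fits and to 36 without irradiated replicate 1. At an unadjusted limma p under 0.05 there were 35 and 38 pairs in the fits that called 0. With irradiated replicate 1 alone against the controls the ratio changed by −1.82. The part that the difference in muscle miRNA between the irradiated libraries plays in the strand ratio was not tested.

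**Figure D2:**
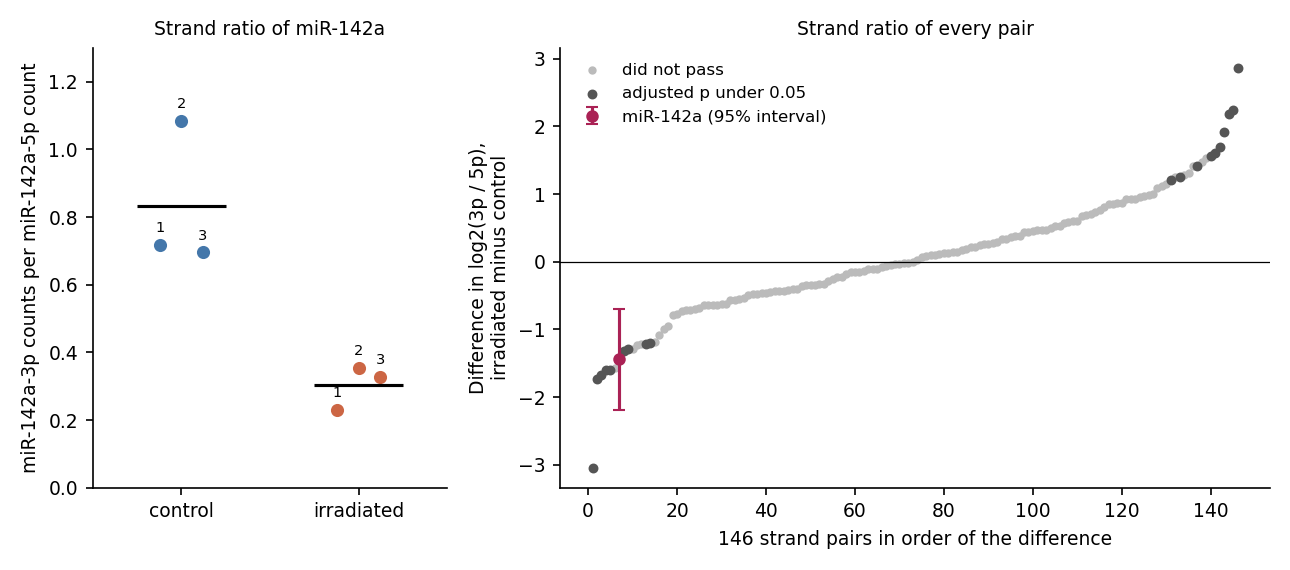
Left, counts of miR-142a-3p per count of miR-142a-5p in each library, with the replicate number at each point and the mean as a bar; right, the difference in log2(3p/5p) between irradiated and control for 146 strand pairs in order, with miR-142a and its 95% interval. Control ratios are 0.695 to 1.085 and irradiated ratios 0.231 to 0.355, and miR-142a is at place 7 with −1.44.

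MiR-142 marks blood cells as a class, so its arms were set beside miRNAs of single lineages. The 6 lists, of 34 detected miRNAs in all, were used, chosen from general knowledge. A further analysis, chosen after the data were seen, compared each miRNA's change with that of a miR-142a arm within libraries in limma. Against miR-142a-3p, 16 of 517 miRNAs fell further (3.09%) and 418 fell less or rose (80.9%). Against miR-142a-5p, 73 of 518 fell further (14.1%) and 285 fell less or rose (55%).

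Lymphoid miRNAs moved both further and less than miR-142. Of 9 listed, 5 were lower, 1 was higher and 3 did not pass, against 33.5% lower and 27.7% higher over all tested miRNAs. The median log2 change was −3.56, against 0.01 over all tested miRNAs, and −3.045 with irradiated replicate 1 alone. Every lower entry but miR-128-3p is of the miR-181 family, so the count and the median rest largely on 1 family. MiR-181a-5p, which tunes the antigen response of thymocytes, stood at 103614, 61698 and 117812 CPM in control replicates 1, 2 and 3 and at 4227, 2178 and 3570 CPM in the irradiated ones. It fell further than miR-142a-3p, by −1.98 on the log2 scale (limma adjusted p of 8.2e-04). So did miR-128-3p (−2.87, 3.2e-05), which is abundant in thymocytes, as well as miR-181b-5p (−2.55, 3.9e-05) and miR-181a-1-3p (−2.49, 4.0e-05). For miR-181d-5p the difference from miR-142a-3p did not pass (−0.70, 0.0772). Each of these 5 fell further than miR-142a-5p, by 2.15 to 4.32 on the log2 scale.

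The remaining 4 lymphoid entries, linked to mature or activated lymphocytes, changed less than miR-142a-3p or rose, as did 80.9% of all miRNAs in that comparison. MiR-150-5p, high in mature T and B cells, stood at 918, 979 and 1056 CPM in control replicates 1, 2 and 3 and at 1147, 582 and 654 CPM in the irradiated ones. Those groups overlapped, and its own change did not pass (−0.31, edgeR adjusted p of 0.373). Its sign turned with upper-quartile factors (0.16) and without irradiated replicate 2 (0.079), and without irradiated replicate 1 it passed as lower (−0.68, edgeR adjusted p of 0.0321). Relative to miR-142a-3p it was higher by 2.48 on the log2 scale (limma adjusted p of 4.9e-05). MiR-342-3p and miR-155-5p, the latter induced in activated lymphocytes and macrophages, were likewise above miR-142a-3p, by 2.34 (limma adjusted p of 1.2e-04) and 2.74 (1.2e-05). MiR-146a-5p, a brake on inflammatory signalling, rose by 1.304 itself (edgeR adjusted p of 0.004) and by 4.11 relative to miR-142a-3p (limma adjusted p of 2.4e-06). Relative to miR-142a-5p, miR-150-5p (1.04, limma adjusted p of 0.019), miR-155-5p (1.29, 0.0242) and miR-146a-5p (2.67, 4.9e-04) were higher. For miR-342-3p that difference did not pass (0.89, limma adjusted p of 0.109). Of all miRNAs, 55% passed as higher relative to miR-142a-5p.

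None of the tested myeloid and erythroid entries was lower over the 6 libraries, and each changed less than miR-142a-3p or rose (limma adjusted p of 0.00371 or less). Against miR-142a-5p each difference passed except that of miR-223-3p (1.66, limma adjusted p of 0.0924). In the same comparisons, 80.9% of all miRNAs passed as falling less than miR-142a-3p or rising, and 55% did against miR-142a-5p. Over all tested miRNAs 33.5% were lower and 27.7% higher. Of 4 myeloid entries, 1 was higher (miR-223-5p) and 3 did not pass, with a summed level of 34.2 to 61.4 CPM in control and 50.8 to 165 CPM in irradiated libraries. MiR-223-3p, the marker of neutrophils and monocytes, stood at 21.3, 34.6 and 41.7 CPM in control replicates 1, 2 and 3, against 12.0, 51.2 and 83.7 CPM in the irradiated ones. Its sign rests on the libraries used: with irradiated replicate 1 alone it was lower (−1.23, edgeR adjusted p of 0.00223), and without replicate 1 it was higher (1.06, 0.0104). Of 4 erythroid entries 3 were higher, but with irradiated replicate 1 alone 0 passed (edgeR, median 0.13), and all 3 calls were also lost without any 1 control library (edgeR adjusted p from 0.0611 to 0.0804, both for miR-144-3p), and that for miR-144-5p without irradiated replicate 2 (0.0563). Their summed level was 484 to 730.5 CPM in control and 608, 5101 and 2026 CPM in irradiated replicates 1, 2 and 3. The part of this difference in the miR-142 values was not tested.

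None of the listed markers of cells that lack miR-142 was lower. Over all tested miRNAs 33.5% were lower and 27.7% higher. Of 7 vascular and stromal entries, 4 were higher and 0 lower. Of 7 epithelial entries, 4 were higher and 0 lower. Their median log2 change was 1.32, and 1.68 with irradiated replicate 1 alone. MiR-205-5p, of stratified and thymic epithelium, was above miR-142a-3p in its change by 4.20 on the log2 scale (limma adjusted p of 1.7e-06) and above miR-142a-5p by 2.76 (5.3e-04). Differences in this direction passed for 80.9% of all miRNAs against miR-142a-3p and for 55% against miR-142a-5p. The summed epithelial list was at 10190 to 13180 CPM in control and 20680 to 28830 CPM in irradiated libraries, and these did not overlap. The vascular and stromal sum did, at 90070 to 238900 and 205000 to 324000 CPM. Most of it was miR-143-3p in every library, at 84152 to 232297 CPM in control and 184424 to 295686 CPM in irradiated libraries. The 3 muscle entries were all higher, with sums of 202 to 480.2 CPM in control and 602, 20120 and 13400 CPM in irradiated replicates 1, 2 and 3. Each of these calls was lost without some single library: miR-1a-3p without irradiated replicate 2 (edgeR adjusted p of 0.0624), miR-133a-3p without control replicate 3 (0.0556), and miR-206-3p without control replicate 2 (0.0502), control replicate 3 (0.0586) or irradiated replicate 1 (0.0507).

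**Figure D3:**
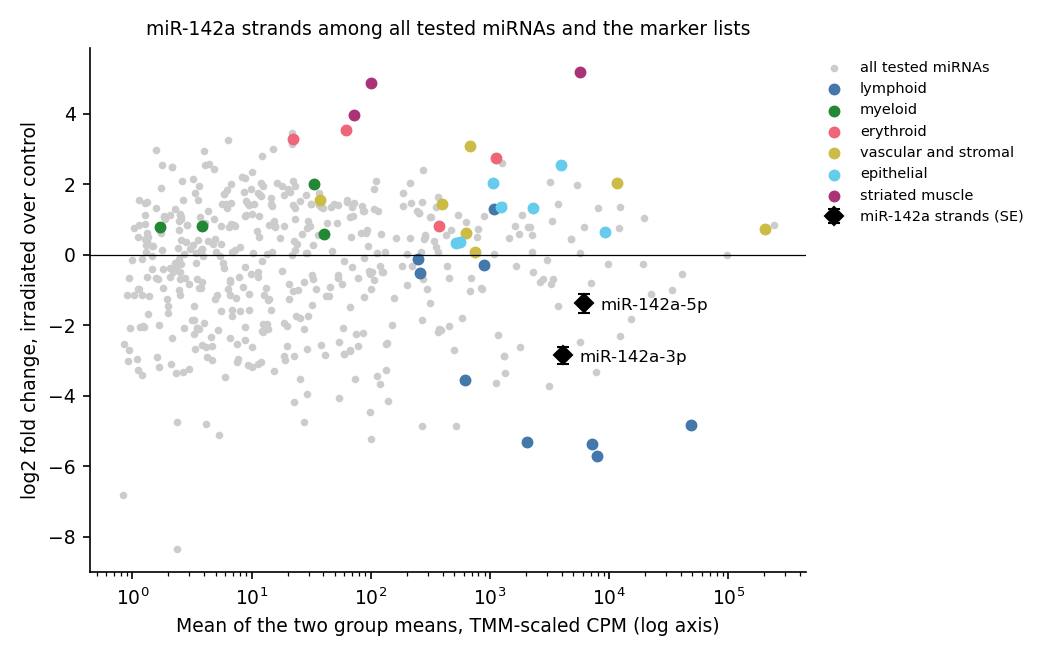
Log2 fold change of irradiated over control against mean TMM-scaled CPM (log axis) for 519 tested miRNAs, with the 6 marker lists in colour and both arms of miR-142a as diamonds with their SE. MiR-142a-3p (−2.86) and miR-142a-5p (−1.39) lie between the 5 lymphoid miRNAs that fell and the lists of non-blood cells.

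**Figure D4:**
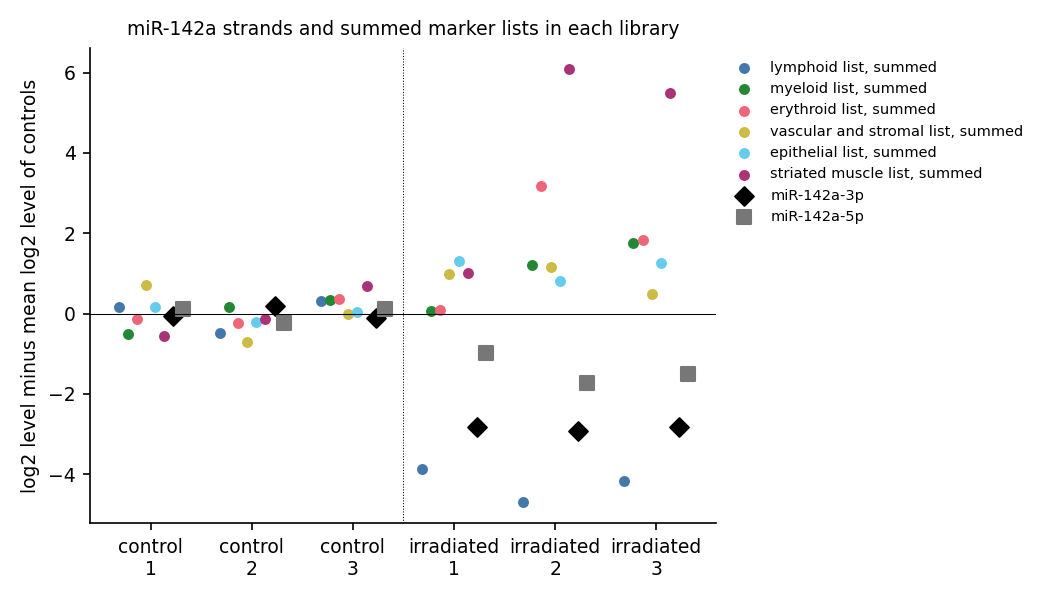
Log2 level in each library minus the mean log2 level of the controls, for both arms of miR-142a and for the summed CPM of each list. In all 3 irradiated libraries miR-142a-3p and miR-142a-5p are above the lymphoid sum (4991 to 8726 CPM, from 91360 to 159100 in control) and below every other list. In control libraries most of the lymphoid sum is miR-181a-5p (61698 to 117812 CPM). In every library most of the vascular and stromal sum is miR-143-3p.

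The miRNAs whose levels ran most nearly parallel to each arm were different ones. Likeness was the SD over 6 libraries of the log2 ratio to the arm, among 154 known miRNAs averaging at least 100 CPM. It is a description, since the group difference dominates it. Closest to miR-142a-3p were miR-467e-5p (SD 0.302), miR-106b-5p (0.343), miR-669a-5p (0.351), miR-181c-3p (0.373) and miR-467a-5p (0.379, the same value as miR-467b-5p with identical counts). Closest to miR-142a-5p were miR-106b-3p (SD 0.185), miR-191-5p (0.218), let-7i-5p (0.3302), let-7g-5p (0.3304) and miR-98-5p (0.347). The 2 arms of the miR-106b hairpin thus appear 1 beside each arm of miR-142a, but crosswise, the 5p arm beside miR-142a-3p. The strand ratio of miR-106b changed the opposite way to that of miR-142a (1.42 against −1.44, each with a limma adjusted p of 0.0298). MiR-106b-3p stood at 540, 350 and 473 CPM in control replicates 1, 2 and 3, and at 188, 154 and 178 CPM in the irradiated ones.

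Strand ratios of the other blood miRNAs give a setting for the miR-142a shift. Of the lymphoid, myeloid and erythroid lists, 7 hairpins had both arms tested, and 3 passed, all toward the 5p arm: miR-223 (−1.68), miR-342 (−1.32) and miR-155 (−1.20), each with a limma adjusted p of 0.034. Over all 146 strand pairs 13.7% passed, and 6.85% passed toward the 5p arm. The blood pairs were picked out after values were seen. MiR-150 had −1.08 (limma adjusted p of 0.0754), and miR-486a, miR-144 and miR-511 had 0.02 to 0.15. The arms of miR-486a are reverse complements over at least 16 bases, and their counts differed by at most 1.41% in every library. Its ratio is therefore no usable measure of a strand shift. Toward 5p does not mean toward the same kind of arm in these hairpins. For miR-155 and miR-150 the 5p arm is the abundant one, with 0.0196 and 0.0195 of the 3p arm per 5p arm in control libraries, whereas for miR-342 the 3p arm was 54.5 times as abundant. MiR-155-3p was scarce, at 3.57 to 6.13 CPM in control and 1.57 to 2.03 CPM in irradiated libraries. These 3 calls were each lost when any 1 control library was left out (limma adjusted p of 0.1 to 0.137). Without irradiated replicate 3 the adjusted p was 0.0537 for the strand ratio of miR-223, 0.0537 for the strand ratio of miR-342 and 0.119 for the strand ratio of miR-155, and without irradiated replicate 2 it was 0.0553 for miR-342. The 3 signs held in those fits. MiR-150 passed without irradiated replicate 1 (−1.37, 0.0184).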

How the data were processed

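The deposited table holds raw read counts per mature miRNA for 6 libraries, per the file headers. No aligner, counting tool or build is named (not given in the sources used here). Also deposited are the authors' log2 fold change and adjusted p-value columns, and the submitters' processing notes name DESeq2 1.10.1. A further 6 count columns were not used. Library totals were 7730641 to 9287017 counts, and a count of 0 allows up to 3 counts (0.323 to 0.388 CPM, counting error only, as reads carry no molecular identifiers). The labels give n = 3 mice per group, and no 2 libraries were copies.

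The count test was edgeR 4.0.16 in R 4.3.3 (TMM, filterByExpr, robust quasi-likelihood). Strand ratios and changes relative to an arm were tested with limma 3.58.1 on log2 CPM (prior count 2), with Benjamini-Hochberg adjustment over all pairs or miRNAs. Both were run on simulated data in which all miRNAs varied alike between libraries of a group. That simulation does not cover the differences between the irradiated libraries, nor the loss of calls without single libraries. Sequences and loci came from RefSeq (GRCm38.p6; all 3 members matched) and GENCODE M21, folded with RNAfold 2.7.2. Members and lists were chosen with earlier results of these data known. Named miRNAs were the members, the lists, the 5 closest to each arm (mean of at least 100 CPM), and the strand pairs beside miR-142a and at both ends. MiR-24-3p, miR-3074-5p, miR-467b-5p, the strand pairs of the blood lists and the comparisons with an arm were added after values were seen. Alternatives were other scaling, filters and prior counts, DESeq2 1.42.0, limma-voom, a replicate block, removing miR-21a-5p, adding or dropping miR-142b, and leaving out libraries. Of 35 listed miRNAs, miR-486b-5p was not analysed.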

Additional observations from a re-analysis of the deposited data

How the results depend on the processing

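MiR-142a-3p kept its direction and its call in all 18 alternatives (−3.12 to −2.42) and miR-142a-5p in 16 of 17, the exception being irradiated replicate 1 alone (−0.80). The number of miRNAs called was 318, and 210 with a mean of at least 10 CPM, where fewer miRNAs were tested. The miR-142a strand ratio kept its direction in all 14 alternatives. It did not pass when every pair with at least 1 count entered (−1.44, limma adjusted p of 0.0657), nor in the fits named above without single libraries (−1.57 to −1.24). The number of strand pairs called was 20, with 12 at a mean of at least 10 CPM, 13 with irradiated replicate 1 alone, and 0 to 36 without single libraries. With the replicate number as a block it was 33, miR-142a-3p changed by −2.85, miR-142a-5p by −1.41 and the ratio by −1.44 (limma adjusted p of 0.0046), with no call of a member changed. Same-numbered libraries did not pair (correlations of 0.0994, −0.0244 and 0.23), and 298 miRNAs were called with the block.

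For the other named miRNAs and strand pairs, 879 alternative values were computed: 752 kept sign and call, 79 lost the call, 32 gained one and 16 turned in sign, the last all from values that had not passed. Most often lost were the calls for the strand ratio of miR-18b (9), miR-144-5p (8), and miR-451a, miR-144-3p, let-7i-5p and miR-98-5p (7 each); the cause was not tested. The turned signs were miR-126a-5p with library totals (−0.073) and at 10 CPM (−0.17), miR-150-5p with upper-quartile factors (0.16) and irradiated replicate 1 alone (0.42), and miR-155-5p with upper-quartile factors (0.32) and without miR-21a-5p (0.069). With irradiated replicate 1 alone miR-223-3p (−1.23) and the strand ratio of miR-144 (−0.014) turned. Without single libraries the ranges were −0.68 to 0.079 for miR-150-5p, −0.20 to 0.095 for miR-155-5p, −0.14 to 0.72 for miR-429-3p and −0.044 to 1.06 for miR-223-3p. For strand ratios they were −0.024 to 0.29 for miR-144 and −0.19 to 0.34 for miR-511. With 3 libraries per group, no exact permutation test could go below 0.1.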
